A study of Drosophila melanogaster with 30 samples.

Results

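The 26S proteasome is the protease that degrades ubiquitin-tagged proteins in the cytosol and nucleus. Its core particle is a barrel with outer rings of alpha subunits, which gate the channel, and inner rings of beta subunits, of which beta1, beta2 and beta5 carry the active sites. The regulatory particle caps the core. Its base holds the ring of Rpt ATPases, which unfold the substrate, with the ubiquitin receptors Rpn1, Rpn10 and Rpn13 and the scaffold Rpn2, and its lid holds Rpn11, which removes the ubiquitin chain. Core and regulatory particle are built in fixed proportions. Drosophila also has copies of single subunits with a T or R at the end of the symbol, several of which are known from the testis, where they enter the proteasomes of developing sperm.

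Proteasome genes were taken as all genes whose FlyBase symbol begins with Prosalpha, Prosbeta, Rpn or Rpt followed by a number. The rule found 48 of the 17918 genes listed in the count files. Of these, 32 are somatic subunits, with 7 alpha and 7 beta subunits in the core and 10 base and 8 lid subunits in the regulatory particle. The other 16 are suffix copies, 11 of core and 5 of regulatory subunits. The 13 members on chromosome arm 2R and the 14 on 3R outnumbered the 8 on 2L, 7 on 3L and 6 on X.

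RNA was sequenced from heads of adult flies taken 22 to 31 h after eclosion, in 6 groups of 5 libraries, to learn which pathways Bchs overexpression affects. Bchs, which Drosophila has in place of WDFY3, is a large BEACH-domain protein known from the autophagy of ubiquitinated aggregates, the other main route of protein degradation beside the proteasome. In the glia dataset, flies of genotype repo-Gal4/UAS-bchs::HA (glial overexpression) were compared with repo-Gal4/+ flies (repo-Gal4 control, the driver control of this dataset) and UAS-bchs::HA/+ flies (UAS control). In the neuron dataset, nSyb-Gal4/UAS-bchs::HA flies (neuronal overexpression) were compared with nSyb-Gal4/+ flies (nSyb-Gal4 control, likewise the driver control) and a separate set of UAS-bchs::HA/+ flies. The repo driver is active in glia and the nSyb driver in neurons, so that in whole heads the transgene acts in a part of the cells only, beside muscle, fat body and epidermis. Each overexpression group carries both transgenes, and each control carries 1 of them. The glia dataset was homogenised in Trizol before column purification and the neuron dataset on the column kit alone, so that extraction and driver cannot be told apart between datasets. In bulk heads, fewer cells of a type and less RNA per cell cannot be told apart either.

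A library of the glia dataset held 28685786 to 84208964 counts in genes, and one of the neuron dataset 44017794 to 60266009. Head markers were present in all groups, with a summed level of 6 genes between 20195 and 34826 CPM (counts-per-million, after TMM scaling). Most of it came from ninaE and trp, and the neuronal markers varied widely in the glia dataset. There elav was at 15.5 to 121 CPM with overexpression, 8.47 to 144 in the driver control and 6.24 to 147 in the UAS control. In the same order nSyb was at 883 to 1496, 248 to 1535 and 158 to 1528 CPM. The level of bchs was 1207 ± 50.3 CPM (SD, n = 5) with glial overexpression, 155 ± 67.3 in the driver control and 167 ± 83.9 in the UAS control. It was 428 ± 97.6 CPM with neuronal overexpression, 102 ± 16.6 in the driver control and 91.3 ± 10.05 in the UAS control. Its lowest levels, 17.0 and 34.8 CPM, were in the 2 controls described next, and without them the glial controls were at 184 ± 8.20 and 204 ± 6.89 CPM (n = 4). In the glia dataset 2 controls stood apart from all other libraries. The length slope of a library is how far its log2 levels, taken relative to the median library, change with each doubling of transcript length over all tested genes, and a low slope means fewer counts of long transcripts. UAS control 2 had -0.94 and repo-Gal4 control 3 had -0.61, against -0.22 to 0.07 in the other 13 libraries of that dataset and -0.07 to 0.09 in the neuron dataset. The summed level of 5 fat body markers was also highest in these libraries within their groups, at 100696 and 62343 CPM. Most of it came from Yp1, Yp2 and Yp3, at up to 45169, 28090 and 27354 CPM in the UAS control. Lsp2 and Fbp1 reached at most 179 and 1.01 CPM in that group. Within both control groups the highest Lsp2 level was in another library. Group levels and tests of the glia dataset are therefore given with and without both.

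Of the somatic subunits, 31 were abundant in every library and passed the filter on low counts. Their lowest count in any library was 975 for glia and 1541 for neurons, both of Prosbeta4, where counting error alone is 3.20% and 2.55% of the value. The exception was Prosalpha1 (FBgn0263121), with 4 counts in all 15 libraries of the glia dataset and 1 in those of the neuron dataset. The gene lies on arm 2R from 7827303 to 7828678 in build BDGP6, and its copy Prosalpha1R lies from 7830413 to 7831771 on the same strand. Prosalpha1R had 87 and 37 counts. The deposited tables keep reads that aligned to several places in a counter outside the genes, and reads of this gene pair that fell there are not in either gene's count. How many did was not tested, so the level of Prosalpha1 is not known from these files and the core is described by 13 genes.

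Per kb of transcript, the subunits lay within a narrow band. Averaged over the 6 groups, the 13 core genes spanned 42.9 CPM per kb for Prosalpha4 to 87.2 for Prosbeta5, the chymotrypsin-like active subunit. The 18 regulatory genes spanned 32.8 for Rpn2 to 61.6 for the ATPase Rpt6. In each group the median core gene was above the median regulatory gene. These medians were 53.3 and 44.1 CPM per kb with glial overexpression, 55.2 and 46.5 in the driver control, and 63.9 and 49.7 in the glial UAS control. Without UAS control 2 and repo-Gal4 control 3 they fell to 47.3 and 40.8 in the driver control and 42.5 and 38.0 in the UAS control, so that overexpression had the highest medians of the 3 groups in place of the lowest. In the neuron dataset they were 57.1 and 48.4 with overexpression, 60.1 and 51.6 in the driver control, and 60.3 and 52.7 in the UAS control. Core transcripts are shorter than most regulatory ones, and the part of length in this difference was not tested.

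The order of levels was clear at its ends and not in its middle. Prosbeta5 was the highest core gene in all 6 groups, followed in the neuron dataset by Prosbeta2, the trypsin-like active subunit, at 73.4 CPM per kb. The caspase-like active subunit Prosbeta1 was in the middle of the core, at 59.6 CPM per kb in the neuron dataset. Rpn2 was the lowest regulatory gene in every group, and Rpn1, the other large base subunit, was next above it in the average over groups at 34.5. Of 12 neighbouring core pairs in the order of levels, 5 with neuronal overexpression, 3 in the driver control and 4 in the UAS control were further apart than the larger SD of the pair. Among 17 regulatory pairs these were 4, 5 and 3. In the glia dataset 1 core pair and 1 regulatory pair were apart by this measure with overexpression, and none was in either control. Without the 2 libraries, 3 core and 6 regulatory pairs were apart in the driver control and 4 and 5 in the UAS control, with Prosbeta5 still the highest core gene and Rpn2 the lowest regulatory gene in both.

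**Figure D1:**
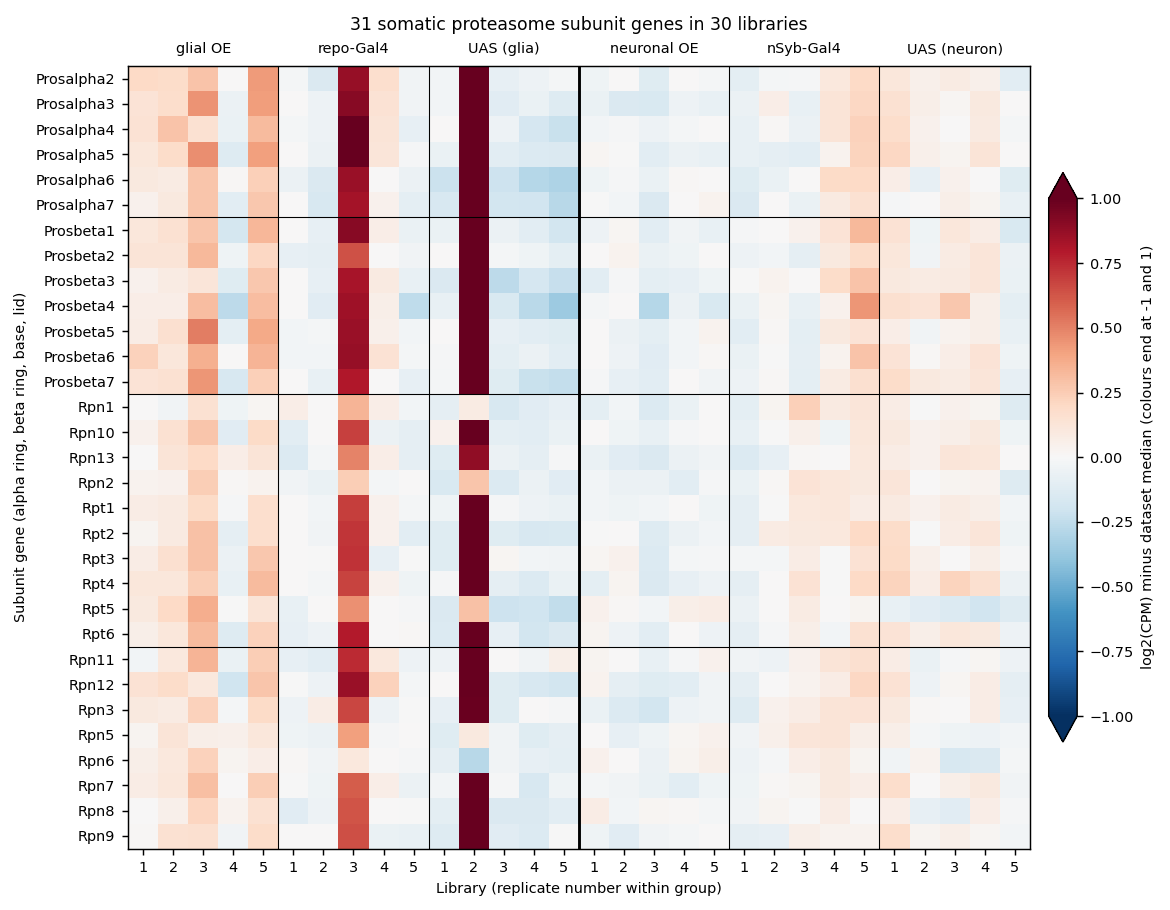
Heat map of 31 somatic subunit genes (vertical axis, grouped into alpha ring, beta ring, base and lid) in 30 libraries (horizontal axis, 5 per group), with colour showing log2 CPM minus the gene's median over the 15 libraries of the dataset; colours end at -1 and 1. UAS control 2 and repo-Gal4 control 3 of the glia dataset are high for nearly all genes. In UAS control 2, Rpn1, Rpn2, Rpn5 and Rpt5 are much less so and Rpn6 is the lowest of the 15 libraries. Neuronal overexpression is pale throughout.

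With glial overexpression no proteasome gene passed the test against either control. Of 35 members tested in the glia dataset (31 somatic subunits and 4 copies), 0 passed an adjusted p of 0.05 against the driver control, against a background of 0.484% of 11149 genes, by edgeR's quasi-likelihood test with Benjamini-Hochberg adjustment. Against the UAS control 0 passed as well, with a background of 1.13%, as between the controls, with a background of 0.888%. No member was called against both controls, where the background was 0.161%. At an unadjusted p of 0.05 the somatic count was 0 of 31 against each control, beside 4.33% and 8.09% of all genes. By DESeq2, at an adjusted p of 0.05, 0 somatic genes were called too. The median log2 fold change of the somatic genes was -0.03 against the driver control and -0.17 against the UAS control, beside -0.02 and -0.09 over all genes. Below 0 were 21 of 31 and 26 of 31, beside 55.8% and 59.2% of all genes. No member had all overexpression libraries below or above all controls, where 0.395% and 1.01% of all genes did. The median standard error was 0.26, and the 95% intervals of single genes reached 0.96 from 0 against the driver control and 1.32 against the UAS control, so that moderate differences were not detectable with all 15 libraries.

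The median standard error was 0.07 without UAS control 2 and repo-Gal4 control 3. The somatic subunits summed to 4193 CPM in UAS control 2 and to 2910 in repo-Gal4 control 3, while in that dataset the other 13 libraries spanned 1689 to 2212. Core genes summed to 1863 CPM in the first and 1086 in the second, and the next highest library was a glial overexpression library at 762. The regulatory sum was 2330 and 1823 CPM in the same 2 libraries. Within the UAS control the coefficient of variation of a subunit's CPM had a median of 50.7% over the 31 genes, against 26.7% in the driver control, 9.99% with glial overexpression and 3.21% to 7.32% in the groups of the neuron dataset.

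Longer members tended to be less raised there. In UAS control 2 the core median was 1.43 log2 units above the dataset mean and the regulatory median 0.98, a gap of 0.45, whereas this gap lay between -0.18 and 0.16 in the other 14 libraries. Rpn2 reached 123 CPM in UAS control 2, against 91.6 to 97.8 in the other UAS controls, and Rpn1 105 against 88.7 to 93.5, while the short Prosbeta5 reached 255 against 69.9 to 75.9. Rpn6, a lid scaffold subunit of middling length, was lowest of all 15 libraries there at 74.6 CPM. The lid subunit Rpn3, of similar length, reached 106 CPM there, against 49.4 to 53.6 in the other UAS controls. Across the 31 somatic genes, the log2 fold change of glial overexpression against the UAS control rose by 0.25 per doubling of transcript length. Over all genes it rose by 0.02 in the same comparison.

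The order of core medians in the glia dataset resembled that of the length slopes, most closely at its ends. The 5 libraries of the glia dataset with the lowest slopes had the 5 highest core medians. They were UAS control 2, repo-Gal4 control 3 and glial overexpression 5, 3 and 2, with slopes of -0.94, -0.61, -0.22, -0.15 and -0.09 and core medians of 1.43, 0.69, 0.14, 0.17 and -0.04. Apart from the 2 controls these were all overexpression libraries, so group and slope overlap among them. Below them the 2 orders agreed less closely. UAS controls 4 and 5 had the highest slopes, 0.07 and 0.05, and the lowest core medians, -0.32 and -0.37. Counting slopes from the lowest and core medians from the highest, glial overexpression 4 ranked 8 and 12, and repo-Gal4 control 1 ranked 11 and 8. The 4 UAS controls other than UAS control 2 had slopes of 0.03 to 0.07 and core medians of -0.37 to -0.25. The top of the order was not shared in the neuron dataset, with the lowest slope, -0.07 in neuronal overexpression 4, at a core median of -0.05.

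**Figure D2:**
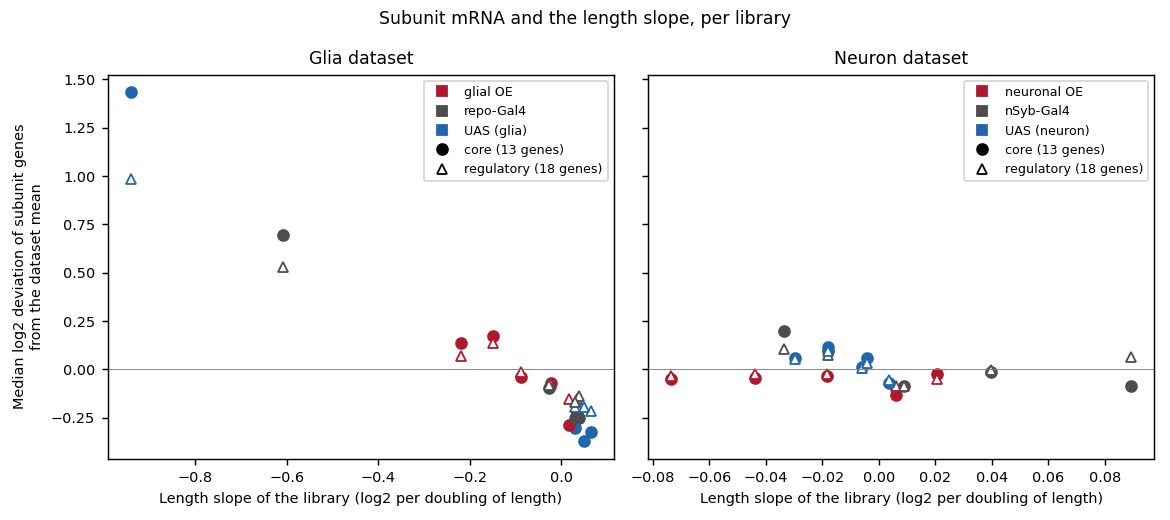
Median log2 deviation of 13 core genes (filled circles) and 18 regulatory genes (open triangles) from the mean of the 3 group means (vertical axis), against the library's length slope in log2 units per doubling of transcript length (horizontal axis, a different scale in each panel), with 1 pair of symbols per library and colour for group. UAS control 2 and repo-Gal4 control 3 lie far to the upper left, at core medians of 1.43 and 0.69, and the neuron dataset stays between -0.13 and 0.20.

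Without these 2 libraries the sign of most fold changes turned. Against the UAS control, 26 of 31 somatic genes were then higher with glial overexpression, against a background of 17.2% of genes called and 11.8% called higher, and all 31 were above 0. Their median log2 fold change was 0.24 (core 0.31, regulatory 0.20), beside 0.03 over all genes, with a median standard error of 0.07. Against the repo-Gal4 control 1 gene was higher, with a background of 6.35% called and 4.55% called higher, and 30 of 31 were above 0, with a median of 0.16. The only member called against both was Prosalpha6, an alpha-ring subunit named after its values were seen, where the background was 3.97%. All 5 overexpression libraries were above all 8 remaining controls for 4 members (Prosalpha6, Rpn2, Rpn5 and Rpn6), as for 3.63% of all genes, and below them for 0, as for 1.80%. Between the controls, repo-Gal4 against UAS, 0 of 31 were called, with a background of 4.35%. Of these, 29 were above 0, with a median of 0.09, beside -0.01 over all genes.

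Prosalpha6 shows what the choice of libraries does. Its levels were 41.5, 40.9, 47.0, 39.2 and 45.7 CPM with glial overexpression. In the driver control they were 37.2, 35.0, 70.5, 38.7 and 37.3 CPM, with replicate 3 the high value. In the UAS control they were 33.4, 93.5, 33.6, 31.8 and 31.3 CPM, with replicate 2 the high value. All 5 overexpression libraries therefore lay above the other 4 libraries of each control and below the 1 that stood apart. With all libraries its log2 fold change was -0.03 against the driver control and -0.06 against the UAS control, with standard errors of 0.31, and without the 2 libraries it was 0.21 (adjusted p = 0.0492) and 0.41 (adjusted p = 0.000531) by edgeR.

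The remaining libraries still differed in length slope between the groups. Over all genes, the log2 fold change against the UAS control fell by 0.14 per doubling of length without the 2 libraries, and that against the driver control fell by 0.11. With each library's length slope as a covariate, a fit added after the values were seen, 1 of 31 somatic genes (Prosalpha6) was higher against the UAS control without the 2 libraries, in place of 26. The background was 5.54% called and 3.87% called higher. The somatic median was then 0.07 against the UAS control and 0.02 against the driver control, where 0 were called, with a background of 3.90%. Between the controls, repo-Gal4 against UAS, the somatic median was 0.07 as well, with 27 of 31 above 0. There 1 was higher (Prosalpha6), with a background of 7.76% called and 4.75% called higher. With the covariate and all 15 libraries, 3 somatic genes were higher against the UAS control (Prosalpha6, Rpn6 and Rpt5), with a background of 23.0% called and 15.2% called higher. Against the driver control 0 were called, with a background of 6.42%. Between the controls 2 were higher (Rpn1 and Rpt5), with a background of 9.20% called and 5.24% called higher. Overexpression and slope overlap in these 13 libraries, since 3 of 5 overexpression libraries have lower slopes than all 8 controls, and their parts cannot be told apart fully.

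**Figure D3:**
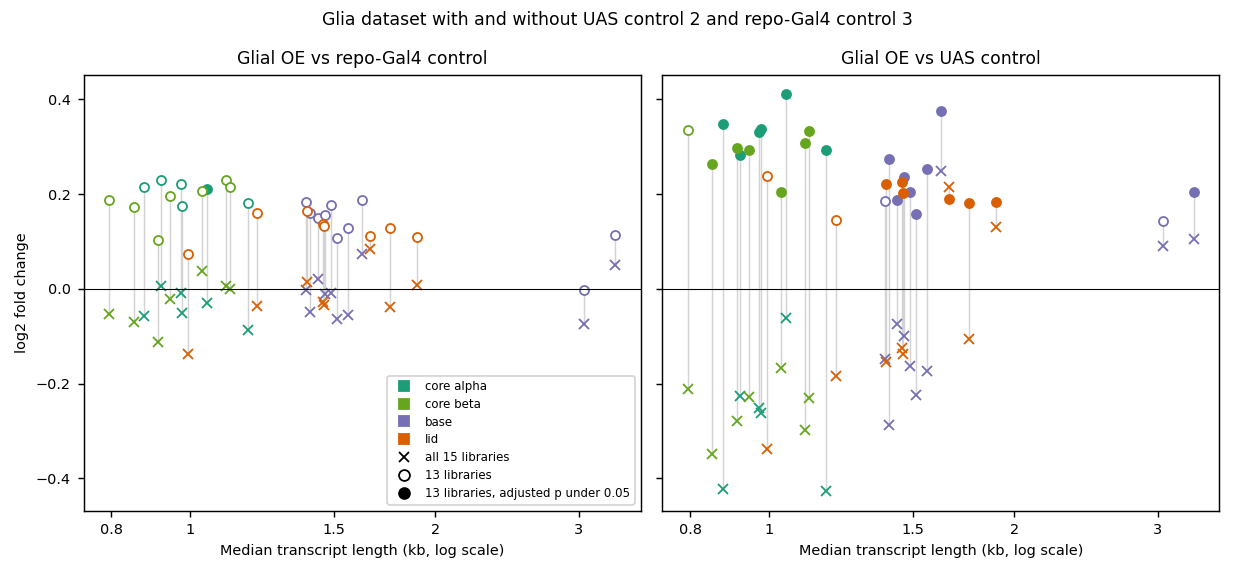
Log2 fold change of 31 somatic subunit genes with glial overexpression (vertical axis) against median transcript length in kb (horizontal axis, log scale), for each control, with crosses for all 15 libraries, circles for the 13 without UAS control 2 and repo-Gal4 control 3, and filled circles for an adjusted p under 0.05. Against the UAS control the median moves from -0.17 to 0.24 and 26 circles are filled, and against the repo-Gal4 control 1 is.

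Rpn6 and Rpt5 had the highest fold changes of the somatic genes against the UAS control with all 15 libraries. Rpn6 measured 94.0, 97.4, 106, 92.0 and 94.8 CPM with glial overexpression, 91.2, 88.1, 97.1, 90.4 and 89.6 in the driver control and 84.7, 74.6, 88.0, 85.2 and 84.3 in the UAS control. The overexpression libraries lay above all UAS control libraries and overlapped with the driver control. On the log2 scale the fold change came to 0.22 ± 0.11 (SE; edgeR adjusted p = 0.754) against the UAS control and 0.09 ± 0.11 against the driver control. Rpt5, a base ATPase whose tail is known from yeast to dock on the alpha ring, was 0.25 ± 0.15 and 0.07 ± 0.15 (SE). Neither passed the test with all libraries and no covariate. Without UAS control 2 and repo-Gal4 control 3 both were higher against the UAS control, Rpn6 by 0.19 ± 0.05 (SE; edgeR adjusted p = 0.0153) and Rpt5 by 0.38 ± 0.06 (adjusted p = 0.00203), and against the driver control they were at 0.11 ± 0.05 (adjusted p = 0.147) and 0.19 ± 0.06 (adjusted p = 0.0985). Rpn1, next in the order of the rule for named members, was at -0.07 ± 0.12 against the driver control and 0.09 ± 0.12 against the UAS control, and without the 2 libraries at -0.00 ± 0.05 and 0.14 ± 0.05 (edgeR adjusted p = 0.0610 for the latter).

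Neuronal overexpression was measured far more finely, with a median standard error of 0.05 log2 units, and the changes were small. Against the nSyb-Gal4 control 1 of 33 tested members (31 somatic subunits and 2 copies) was lower and 0 were higher, with a background of 16.5% of 10778 genes called and 8.34% called lower. The UAS control gave 3 lower and 1 higher, with a background of 38.6% (20.2% lower and 18.3% higher). Between the controls, nSyb-Gal4 against UAS, 1 was higher, with a background of 25.6% called and 11.8% called higher. No member was called against both controls, where the background was 10.2% and 1096 genes passed. At an unadjusted p of 0.05, 7 somatic genes passed against the driver control, beside 28.3% of all genes, and 10 against the UAS control, beside 48.4%. Prosalpha3, Prosbeta3 and Rpn3 were lower against both at that level, as 16.9% of all genes were in 1 direction or the other.

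The 4 lower members were 1 alpha, 1 beta and 2 base subunits. Prosbeta3, a non-catalytic beta subunit (arm 3R, 9005313 to 9006226), measured 38.7, 41.3, 38.8, 39.3 and 40.4 CPM with neuronal overexpression. It measured 41.5, 42.6, 41.6, 47.2 and 50.6 in the driver control and 44.4, 43.9, 44.3, 45.2 and 39.7 in the UAS control. All overexpression libraries were below all nSyb-Gal4 libraries, and UAS control 5 fell among them. On the log2 scale the fold change came to -0.17 ± 0.06 (SE; edgeR adjusted p = 0.0440) against the driver control and -0.13 ± 0.06 (adjusted p = 0.0708) against the UAS control. The call against the driver control was lost with DESeq2 size factors (edgeR adjusted p = 0.0550), without the filter on low counts (0.0539), with the replicate block (0.0881), in the fit of all 30 libraries (1.00) and in 10 of 15 fits that left out 1 library.

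Prosalpha3, an alpha subunit whose tail is known from yeast to close the gate (arm 2R, 20994900 to 20996118), measured 58.8, 55.8, 55.5, 59.6 and 58.4 CPM with neuronal overexpression. It measured 59.2, 64.4, 58.4, 67.2 and 71.0 in the driver control and 68.3, 64.0, 62.4, 65.9 and 61.6 in the UAS control. The overexpression libraries were below all UAS control libraries and overlapped with the 2 lowest nSyb-Gal4 libraries. On the log2 scale the fold change came to -0.16 ± 0.05 (SE; edgeR adjusted p = 0.0255) against the UAS control and -0.15 ± 0.05 (adjusted p = 0.0613) against the driver control. Of all members it came nearest to a call against both controls, taking the larger of its adjusted p-values.

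The other 2 lower members, named after their values were seen, were Rpn13 and Rpt4. Rpn13, a ubiquitin receptor, measured 84.1, 81.1, 79.5, 84.3 and 85.7 CPM with neuronal overexpression, 79.9, 83.1, 88.7, 87.9 and 94.6 in the driver control and 92.7, 90.4, 95.3, 95.1 and 87.8 in the UAS control. The overexpression libraries lay below all UAS control libraries and overlapped with the driver control. Relative to the UAS control the log2 fold change came to -0.15 ± 0.05 (SE; edgeR adjusted p = 0.0202), and against the driver control it was -0.07 ± 0.05. The ATPase Rpt4 measured 68.8, 75.1, 66.8, 69.5 and 71.4 CPM with neuronal overexpression, 69.1, 73.7, 81.3, 73.6 and 84.5 in the driver control and 85.8, 77.4, 86.2, 82.3 and 70.9 in the UAS control. The groups overlapped, through UAS control 5 in the last. On the log2 scale the fold change came to -0.20 ± 0.06 (SE; edgeR adjusted p = 0.0239) against the UAS control and -0.12 ± 0.06 (adjusted p = 0.235) against the driver control.

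The lid subunit Rpn3 and the ATPase Rpt2 were next in order and were called against neither control. Rpn3 measured 65.8, 62.8, 60.5, 66.4 and 67.3 CPM with neuronal overexpression, 63.1, 70.8, 72.4, 75.4 and 75.9 in the driver control and 73.7, 69.4, 68.9, 72.5 and 65.0 in the UAS control. A single library of each control overlapped with overexpression. Rpn3 had log2 fold changes of -0.15 ± 0.05 and -0.11 ± 0.05 (SE; edgeR adjusted p = 0.0725 and 0.101), and Rpt2 of -0.13 ± 0.06 and -0.11 ± 0.06 (adjusted p = 0.156 and 0.125).

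Rpt5 was the exception in direction. It measured 72.8, 71.3, 69.5, 73.6 and 74.3 CPM with neuronal overexpression, 67.8, 70.7, 74.7, 70.8 and 72.1 in the driver control and 67.0, 65.4, 64.4, 61.9 and 64.7 in the UAS control. The UAS control libraries were below all libraries of both other groups, which overlapped with each other. On the log2 scale the fold change came to 0.16 ± 0.04 (SE; edgeR adjusted p = 0.0046) for overexpression against the UAS control, 0.14 ± 0.04 (adjusted p = 0.0171) for the driver control against the UAS control, and 0.02 ± 0.04 (adjusted p = 0.801) for overexpression against the driver control. In the glia dataset without UAS control 2, the UAS control of Rpt5 was likewise the lowest group, at 50.4 to 54.2 CPM against 56.8 to 82.4 in the driver control and 59.6 to 77.0 with overexpression. Rpt5 (arm 3R, 23752876 to 23754623) overlaps exons of Hrd3 on the opposite strand, and with a library kit that does not mark strand, reads of the overlap cannot be told apart. The same holds for other members, among them Prosbeta3 (with CG11980), Rpt4 (with wuho) and Prosbeta5 (with Lsm10).

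Small negative values were spread over nearly the whole complex. Against the nSyb-Gal4 control 30 of 31 somatic genes had a log2 fold change below 0, beside 50.3% of all genes, with a median of -0.07 against -0.00 over all genes. Against the UAS control 26 of 31 were below 0, beside 52.0% of all genes, with a median of -0.08 against -0.01. Of the 31, 26 were below 0 against both, beside 35.3% of all genes, and both comparisons share the overexpression libraries. All 13 core genes were below 0 against each control. Of the 18 regulatory genes 17 were below 0 against the driver control and 13 against the UAS control, where the lid divided into 4 below and 4 above and the base into 9 below and 1 above. Subunit genes share libraries and vary together, so these counts describe the samples and carry no p.

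The summed core level was 732 ± 19.0 CPM (SD, n = 5) with neuronal overexpression, 776 ± 67.6 in the driver control and 779 ± 38.6 in the UAS control. The regulatory sum was 1445 ± 30.9, 1519 ± 75.7 and 1505 ± 59.0 CPM. The overexpression libraries overlapped with both controls in each sum. The means of overexpression and the driver control differed by less than the SD of that control, and those of overexpression and the UAS control by slightly more than the SD of that control in both sums. No member had all 5 overexpression libraries below or above all 10 control libraries, where 4.00% and 2.89% of all genes did. Core and regulatory genes moved by about the same amount, with medians of -0.08 and -0.07 against the driver control and -0.08 and -0.08 against the UAS control. Neuronal overexpression also had the least spread between libraries, with a median coefficient of variation of 3.21%, against 7.32% in the driver control and 5.48% in the UAS control.

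Markers of other cell types differed between the groups as well. The summed level of 5 fat body markers was 17102 to 40257 CPM with neuronal overexpression, 38937 to 64374 in the driver control and 30672 to 61033 in the UAS control. Most of it came from Yp1, Yp2 and Yp3. In the same order of groups, Fbp1 had means of 2.45, 1.90 and 0.432 CPM and Lsp2 of 245, 655 and 224. The sum of 3 muscle markers was 5020 to 6847, 7546 to 8536 and 6808 to 8281 CPM. Mhc and Act57B had lower means than in both controls, and Act88F was at 21.1, 19.1 and 36.9 CPM. The part of these markers in the subunits' values was not tested.

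The neuronal counts were sensitive to single libraries. Of 15 fits that each left out 1 library, Rpt5 was called against the UAS control in 15, Rpn13 in 10, Rpt4 in 8 and Prosalpha3 in 7, and none of the 4 was called in the fit of all 30 libraries. That fit takes 1 spread per gene from both datasets, including the 2 glial controls that stood apart. Its log2 fold changes were 0.18 for Rpt5, -0.14 for Rpn13, -0.18 for Rpt4 and -0.15 for Prosalpha3. Leaving out 1 library at a time gave 0 to 5 changed members against the driver control and 1 to 8 against the UAS control. Without nSyb-Gal4 control 1, 5 members were lower against that control (Prosalpha3, Prosbeta3, Rpn1, Rpn3 and Rpt2). Without nSyb-Gal4 control 5, or without UAS control 5, 7 members were lower and Rpt5 higher against the UAS control. A single member was lower against both controls without nSyb-Gal4 control 1 or 3 (Prosalpha3) or without UAS control 5 (Prosbeta3). The share of all genes called in these fits is not given here. With all libraries it was 16.5% against the driver control (8.34% lower), 38.6% against the UAS control (20.2% lower) and 10.2% against both. Against the mean of both controls, 4 members were lower (Prosalpha3, Prosbeta3, Rpt4 and the lid subunit Rpn3), with a background of 26.5% called and 14.4% called lower. With the length slope as a covariate, 3 were lower against the driver control (Prosalpha3, Prosbeta3 and Rpn3). The background was 14.5% called, with 6.77% of all genes higher and the rest of the 14.5% lower. Against the UAS control 8 were lower and Rpt5 higher. The background was 43.3% called, with 21.3% of all genes higher and the rest of the 43.3% lower. Prosalpha3 and Prosbeta3 were then lower against both, where the background was 9.83%.

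**Figure D4:**
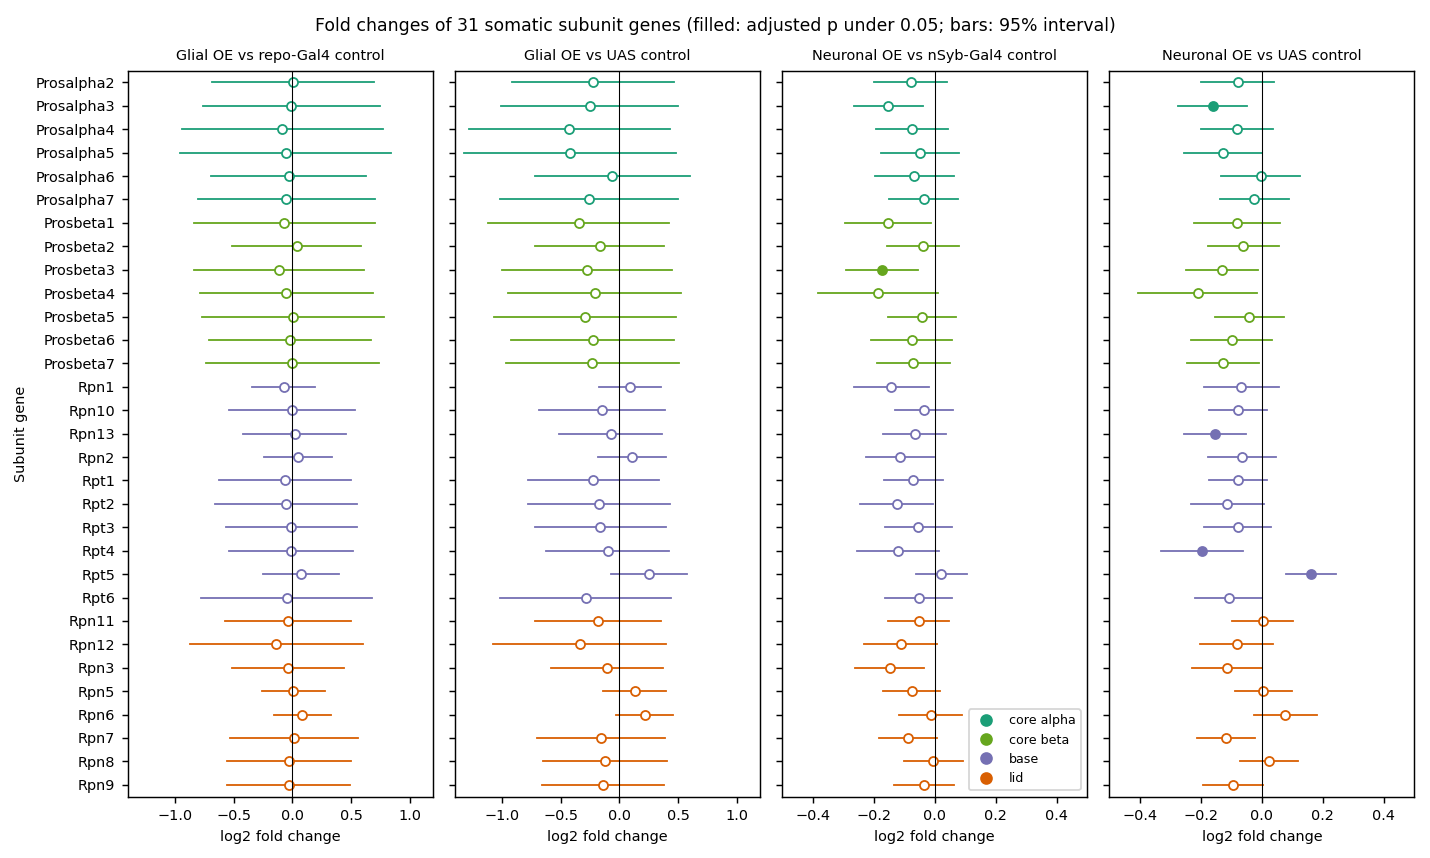
Log2 fold changes (horizontal axis, wider for the glia than for the neuron dataset) of 31 somatic subunit genes (vertical axis) with 95% intervals from all 15 libraries of each dataset, coloured by part of the complex and filled where the adjusted p was under 0.05. The glial intervals are wide and none is filled; of the neuronal points 30 and 26 of 31 lie below 0, with 1 filled against the driver control and 4 against the UAS control.

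The effect of overexpression, taken against the mean of both controls, was compared between glia and neurons in a fit of all 30 libraries. No member differed, with a background of 1.10% of 11137 genes, and the somatic median of the difference was -0.04 with a median standard error of 0.24. Without UAS control 2 and repo-Gal4 control 3, 28 of 31 somatic genes were more positive in glia, with a background of 34.2% called and 17.1% more positive. The median was 0.28. With the length slope as a covariate and all libraries 3 were (Prosalpha3, Rpn2 and Rpt4), with a background of 15.3% called and 7.63% more positive. The UAS controls of both datasets have the same genotype. Without the same 2 libraries, all 31 somatic genes were lower in the glial than in the neuronal UAS control, with a median of -0.34. The background was 51.4% called, with 25.5% of all genes called higher and the rest of the 51.4% lower. With all libraries 0 were called, with a background of 3.05%.

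Suffix copies made up 0.0668% of all proteasome counts in glia libraries (1426 counts) and 0.0451% in neuron libraries (782 counts). Reads of Prosalpha1 and Prosalpha1R that aligned to several places, described above, are not in these sums. Of the 16, 4 passed the filter on low counts in the glia dataset (Prosalpha4T2, Prosbeta2R2, Rpt3R and Rpt6R) and 2 in the neuron dataset (Prosbeta2R2 and Rpt3R), and 8 and 4 reached 10 counts in any library. The most counted was Rpt3R, at 0.593% of the counts of its somatic counterpart Rpt3 in glia libraries and 0.494% in neuron libraries. Prosbeta2R2 had 0.410% and 0.244% of the counts of Prosbeta2, and Prosalpha4T2 0.376% and 0.258% of those of Prosalpha4. Rpn12R and Prosbeta4R2 had 0 counts in all 15 neuron libraries, which allows a level of up to 0.0039 CPM at 3 counts of the total, for counting error only.

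Rpt3R was the copy with the clearest difference. It had 23, 20, 34, 24 and 29 counts with glial overexpression, 38, 18, 40, 9 and 26 in the driver control and 55, 40, 46, 44 and 44 in the UAS control. The overexpression counts were all below those of the UAS control and within the range of the driver control. On the log2 scale the fold change came to -0.74 ± 0.23 (SE; edgeR adjusted p = 0.209) against the UAS control and -0.13 ± 0.23 against the driver control. It was called against the UAS control by DESeq2 (adjusted p = 0.0287), with the length slope as a covariate and in the fit of all 30 libraries. It was not called there without UAS control 2 and repo-Gal4 control 3 (-0.71 ± 0.24, edgeR adjusted p = 0.0606), nor with the covariate added to that, DESeq2 size factors, no filter, the replicate block or any 1 library left out. Against the driver control it was called under none of the alternatives run. Rpt3R overlaps exons of Alg12 on the opposite strand, and if the library kit does not mark strand, reads of the overlap cannot be told apart. In the neuron dataset its fold changes were 0.10 ± 0.22 against the UAS control and 0.24 ± 0.22 against the driver control.

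Prosalpha4T2 had 2, 24, 65, 14 and 12 counts with glial overexpression, 3, 5, 6, 7 and 5 in the driver control and 6, 0, 23, 10 and 18 in the UAS control. Fold changes on the log2 scale of 1.81 ± 0.87 and 1.10 ± 0.81 (SE) did not pass, with edgeR adjusted p of 1.00 and 0.819, and fell to 1.00 and 0.28 without glial overexpression 3. Without UAS control 2 and repo-Gal4 control 3 they were 1.79 ± 0.83 and 0.81 ± 0.73, and did not pass either. Glial overexpression 3 also had the most counts of Prosalpha3T (17) and Prosbeta2R1 (15) and 0 of Prosbeta2R2, which had 17 to 31 in the other 4. Rpt6R was -1.47 ± 0.65 against the driver control and -0.24 ± 0.67 against the UAS control, and -1.15 ± 0.67 and -0.38 ± 0.68 without the 2 controls, with none passing. The copies tested by an exact two-sided permutation test of 5 against 5 libraries, Prosalpha1R, Prosalpha3T, Prosbeta2R1 and Rpn12R in glia and Prosalpha4T2 and Rpt6R in neurons, had p of 0.183 or more.

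The rarest copies appeared where testis transcripts did. The sperm-tail gene dj had 22 counts in repo-Gal4 control 5, 19 in UAS control 5 of the glia dataset, 7 in UAS control 2 of the neuron dataset and 0 in the other 27 libraries. All 8 testis markers were above 0 in the first 2 of these and 7 of 8 in the third. UAS control 5 was the only library with all 16 copies above 0, repo-Gal4 control 5 followed with 13, and UAS control 2 of the neuron dataset had 11, as did glial overexpression 1 and nSyb-Gal4 control 5. Repo-Gal4 control 5 held 17 of the 22 counts of Rpn12R in the glia dataset. Prosalpha4T1 was above 0 only in these 3 libraries, with 1, 4 and 1 counts, and Prosbeta4R2 only in the first 2, with 5 and 3. Over the whole marker list, the summed level of the 8 testis markers ranged from 0.719 to 1.66 CPM with glial overexpression, 0.393 to 2.95 in the driver control and 0.570 to 2.87 in the glial UAS control, with Mst77F and Mst87F above 0 in every library. The part of testis RNA in the copies' counts was not tested. The sum over all 16 copies did not follow the markers, being 142 counts in glial overexpression 3, where dj, djl, Mst98Ca, Mst98Cb, ProtA and ProtB were at 0, and 148 in UAS control 5.

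**Figure D5:**
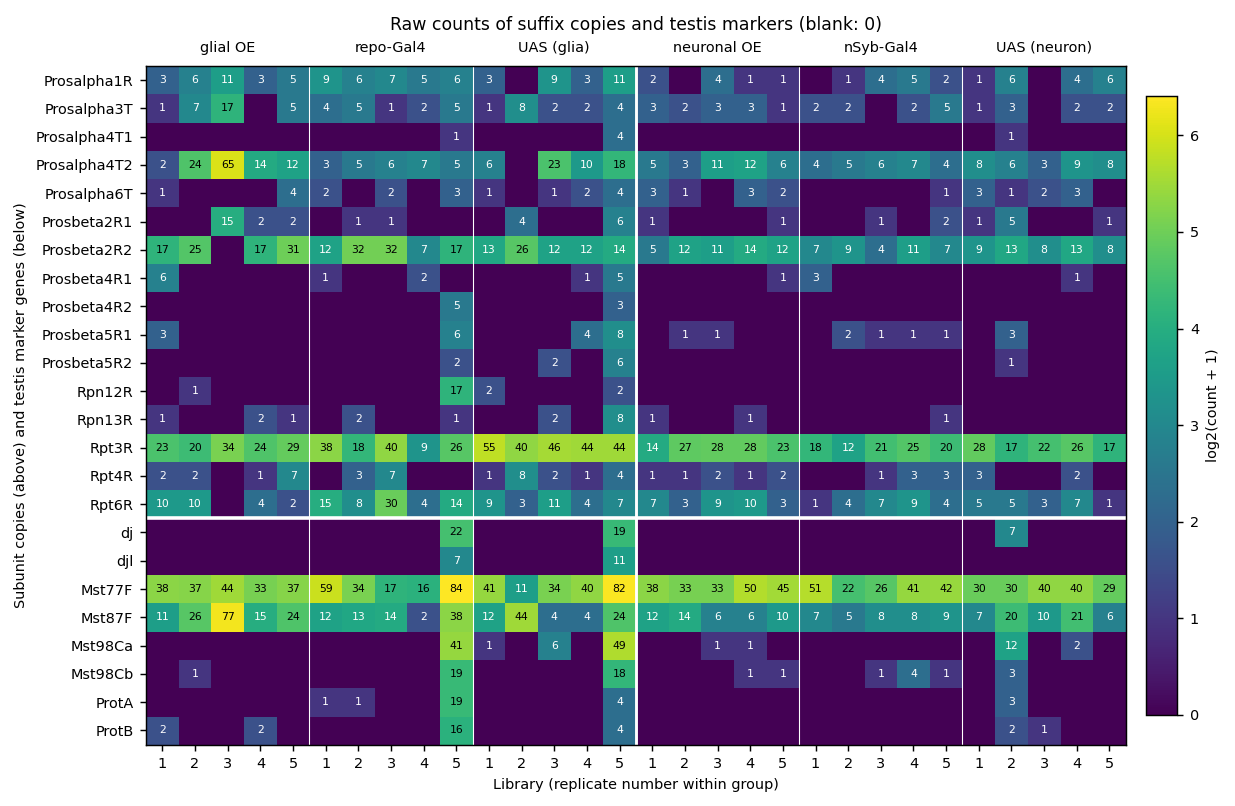
Raw counts of 16 suffix copies (above the line) and 8 testis marker genes (below it) in 30 libraries (horizontal axis, 5 per group), with colour for log2(count + 1), the count printed in each cell and no number for 0. The columns of repo-Gal4 control 5 and UAS control 5 of the glia dataset, and of UAS control 2 of the neuron dataset, hold dj at 22, 19 and 7 counts together with the rarest copies.

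Other genes of the pathway were described from a list of 21 assembly factors, activators, shuttle factors, deubiquitinases, ubiquitin genes and regulators. In the glia dataset 0 of 21 changed in either comparison, with the backgrounds of 0.484% and 1.13% given above. Without UAS control 2 and repo-Gal4 control 3, rngo was higher against the driver control, and Npl4, Sem1, Uch and Usp14 were higher against the UAS control, beside 6.35% and 17.2% of all genes. In the neuron dataset 20 were tested, and 0 changed against the driver control or against both. Against the UAS control 5 were higher (REG, Uch-L5, Ubqn, cnc and Ubi-p5E) and 4 were lower (rngo, maf-S, Ufd1 and Ubi-p63E), beside the background of 38.6%. The transcription factor cnc, the fly counterpart of the Nrf factors that raise proteasome genes, was at 192 ± 14.9 CPM (SD, n = 5) with neuronal overexpression, 194 ± 13.9 in the driver control and 157 ± 19.3 in the UAS control. Its partner maf-S was lower by -0.26 ± 0.06 log2 units (SE; edgeR adjusted p = 0.00396) against the UAS control.

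The 2 polyubiquitin genes went in opposite directions against the UAS control, and neither was called against the driver control. Ubi-p5E was at 628 ± 20.1 CPM (SD, n = 5) with neuronal overexpression, 636 ± 35.6 in the driver control and 529 ± 20.02 in the UAS control, a log2 fold change of 0.25 ± 0.05 (SE) against the last. Ubi-p63E was at 392 ± 18.2, 431 ± 41.1 and 490 ± 53.4 CPM, a log2 fold change of -0.32 ± 0.08. The proteasome activator REG was higher by 0.20 ± 0.05 log2 units (SE) against the UAS control, and its value against the driver control was 0.13 ± 0.05 with an edgeR adjusted p of 0.0854. The core chaperone Pomp, needed to build new core particles, was at 74.7 ± 4.35, 77.3 ± 7.67 and 71.8 ± 6.67 CPM and was called in neither comparison.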

How the data were processed

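Each of the 30 libraries has a table of raw counts per gene, deposited by the authors. Per the submitters' processing notes, tools and build were STAR, HTSeq and BDGP6, with versions and use of strand not given in the sources used here. Special counters held 5.61 to 10.5% of a library and stayed out. Symbols matched 17790 of 17869 and 17626 of 17753 genes; lengths and coordinates came from the BDGP6.54 annotation.

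Each dataset (15 libraries, 3 groups) was fitted with edgeR 4.0.16 in R 4.3.3 (quasi-likelihood F test, filterByExpr, TMM, robust, no covariate), with Benjamini-Hochberg adjustment over all genes at 0.05, and checked on simulated counts. Alternatives used DESeq2 1.42.0; figures used matplotlib 3.10.9. SE is that implied by the F statistic. Levels per kb use the median transcript length. Members and lists were chosen with earlier results of these data known. Named were members called against both controls or the 4 nearest to it per dataset, the highest and lowest per kb, and copies reaching 10 counts with their counterparts; Rpt5, Rpn13, Rpt4, Prosalpha6 and others so marked were added after their values were seen. The labels name no separate animals behind replicates, so p-values measure the spread between samples. Replicate numbers were not taken as pairing samples.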

Additional observations from a re-analysis of the deposited data

Results flagged for a closer look

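In 49 of 174 groups of 5 values that were examined, the highest or lowest library lay apart from the other 4 by more than 0.71 of the group's whole range (Dixon's criterion, which chance meets in about 1 in 20 groups). Subunits share libraries, so these are not 49 separate events.

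Most came from 2 glial controls, which were the highest of their groups. In repo-Gal4 control 3 the levels were 93.6 CPM for Prosalpha3, 81.6 for Prosalpha4, 70.5 for Prosalpha6, 85.6 for Prosbeta2, 56.8 for Prosbeta3 and 138 for Prosbeta5. For base subunits they were 125 CPM for Rpn1, 121 for Rpn2, 100.3 for Rpn13, 126 for Rpt2, 114 for Rpt3, 102 for Rpt4, 82.4 for Rpt5 and 126 for Rpt6, and for the lid 85.4 for Rpn3 and 73.7 for Rpn12. The summed core level was 1086 CPM and the regulatory sum 1823.

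In UAS control 2 of the glia dataset the levels were 161 CPM for Prosalpha3, 157 for Prosalpha4, 93.5 for Prosalpha6, 130 for Prosbeta2, 94.9 for Prosbeta3 and 255 for Prosbeta5. They were 123 CPM for Rpn2, 131 for Rpn13, 186 for Rpt2, 161 for Rpt3, 137 for Rpt4, 73.5 for Rpt5 and 219.9 for Rpt6, and for the lid 106 for Rpn3 and 127 for Rpn12. The summed core level was 1863 CPM and the regulatory sum 2330, with the core median 0.45 log2 units above the regulatory one. Rpn6 lay apart on the low side there, at 74.6 CPM, and the copy Prosbeta2R2 on the high side, at 0.429 CPM. Length slopes were -0.94 and -0.61 in these libraries, and their part was not tested beyond the fits with the slope as a covariate.

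Among other libraries, glial overexpression 3 was high for Rpn2 (121 CPM) and Prosbeta2R1 (0.205 CPM) and low for Prosbeta2R2 (0 CPM). Prosbeta3 was low in UAS control 5 of the neuron dataset (39.7 CPM), and the core sum was low in neuronal overexpression 3 (698 CPM). Rare genes lay apart on 1 to 17 counts. Rpn12R was at 0.204 CPM in repo-Gal4 control 5 and 0.0141 in glial overexpression 2, and Prosbeta2R1 was at 0.104 CPM in UAS control 2 of the neuron dataset. Prosalpha4T2 was at 0.238 CPM in repo-Gal4 control 4. Prosalpha1 was at 0.0152 CPM in repo-Gal4 control 1 and 0.0192 CPM in neuronal overexpression 3.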

How the results depend on the processing

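With all libraries, the glial count of changed members stayed at 0 against the repo-Gal4 control and against both controls with DESeq2, DESeq2 size factors, no filter on low counts, the replicate block and 1 fit of all 30 libraries, and when any 1 library was left out. Against the UAS control it was 1 (Rpt3R lower) with DESeq2 and in the fit of 30. Without UAS control 2 and repo-Gal4 control 3 the counts were 1 against the repo-Gal4 control, 26 against the UAS control, 1 against both and 28 for the glial minus the neuronal effect. With the length slope as a covariate, chosen after seeing the data, the counts were 4 against the UAS control and 2 between the glial controls. The shares of all genes there were 23.0% and 9.20%. For neuronal overexpression they were 3 against the nSyb-Gal4 control (background 14.5%), 9 against the UAS control (43.3%) and 2 against both (9.83%). For the difference 3 were called (15.3%). With covariate and without the 2 libraries, 1 was called against the UAS control (5.54%), 1 between controls (7.76%) and 3 for the difference (10.6%). The neuronal count against the nSyb-Gal4 control was 0 with DESeq2 size factors, without the filter, with the replicate block (Prosbeta3 adjusted p = 0.0881 by edgeR) and in the fit of 30, where the counts against the UAS control and between the controls were 0 too. Against the mean of both neuronal controls it was 4, beside 26.5% of all genes. Leaving out 1 library gave 0 to 5 against the nSyb-Gal4 control, 1 to 8 against the UAS control, 1 to 2 between the controls and 0 to 1 against both, and 0 to 0 in each glial comparison and for the difference. The share of all genes called in those fits is not given here. The cause of these shifts was not tested beyond the values given.

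Without the 2 libraries, the log2 fold change of glial overexpression turned from negative to positive in 26 of 31 somatic genes against the UAS control and in 20 against the repo-Gal4 control. For 13 of the 26 the values against the UAS control were Prosalpha3 0.33, Prosalpha4 0.29, Prosalpha6 0.41 (0.21 against the repo-Gal4 control), Prosbeta2 0.20, Prosbeta3 0.30, Prosbeta5 0.31, Rpt2 0.25, Rpt3 0.20, Rpt4 0.24, Rpt6 0.27, Rpn3 0.18, Rpn12 0.24 and Rpn13 0.19. Leaving out 1 library at a time, their ranges were Prosalpha3 -0.38 to 0.32, Prosbeta3 -0.41 to 0.29, Rpn3 -0.19 to 0.17, Rpt2 -0.27 to 0.24, Prosbeta5 -0.43 to 0.30, Rpt6 -0.41 to 0.26, Prosalpha4 -0.59 to 0.28, Prosbeta2 -0.27 to 0.19, Rpn12 -0.47 to 0.23, Rpt3 -0.26 to 0.19, Rpn13 -0.15 to 0.18, Rpt4 -0.19 to 0.23, Prosalpha6 -0.18 to 0.40, with the highest value in each case without UAS control 2. Prosalpha6 was 0.18 with the covariate. With covariate and without the 2 libraries, Prosalpha4T2 was -0.33, Prosalpha4 0.10, Prosalpha6 0.26, Prosbeta3 0.10, Rpt6 0.057, Rpt6R 0.71 and Rpn12 0.0077.

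Same-numbered libraries of different groups correlated above 0.1 in 8 of 15 pairs of the glia dataset and 1 of 15 of the neuron dataset. In the glia dataset the median correlation was 0.26 for same-numbered pairs and 0.07 for other pairs, so whether the numbers pair samples there is not settled. The main fits did not use the numbers. With the replicate block Rpt4 missed the threshold against the UAS control (adjusted p = 0.0539 by edgeR). Depth did not limit the somatic subunits (975 counts or more), while copies below 10 counts could not be compared. A search of promoters for motifs was not run.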
